A study of Mus musculus with 14 samples.

Results

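The C/EBP genes measured here were Cebpa, Cebpb, Cebpd and Cebpg, chosen by name as 4 of the 23286 genes kept in the deposited tables. They encode the CCAAT/enhancer-binding proteins C/EBPα, C/EBPβ, C/EBPδ and C/EBPγ. Their reads were compared in whole kidneys of 9-week-old mice, taken 5 h after ischemia-reperfusion (IR) injury, in which blood flow is stopped and then restored, or after sham surgery. The groups of 3 libraries each were VE-PTPiKO IR, VE-PTPiKO sham, Control IR and Control sham. VE-PTPiKO names mice in which Ptprb was targeted; its product VE-PTP removes phosphate from Tie2, a receptor of endothelial cells. The strain, the alleles of both genotypes, the promoter that drives deletion and the cells it acts in are not given for these samples in the sources used here.

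C/EBP proteins are basic leucine zipper (bZIP) transcription factors that bind DNA as pairs, with one another or with partners such as ATF4. C/EBPα is known for keeping cells differentiated and restraining their division, chiefly in liver, fat and myeloid cells. C/EBPβ and C/EBPδ are the acute-phase factors, first described in liver cells, that respond to IL-6 and IL-1. C/EBPγ has no strong activation domain of its own and acts through its partners, among them ATF4 on amino acid and glutathione genes. The transcripts of all 4 genes were counted here, which does not show the proteins, their shorter translated forms or their phosphorylation.

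Cebpa lies at chr7:35119293-35121928 on the plus strand (mm10), and Cebpg at chr7:35046422-35056566 on the minus strand, 62.7 kb away, with 0 genes of the tables between them. Cebpb lies at chr2:167688915-167690432 and Cebpd at chr16:15887286-15889545, both on the plus strand. In the tables' coordinates 321 bases of Cebpd overlap the antisense gene Spidr, and 0 bases of Cebpb overlap another gene. In GENCODE M21 15.0% of Cebpd exon bases are shared with Spidr exons. GENCODE also shares 20.7% of Cebpb exon bases with exons of Tmem189. The sources used here do not say whether counting used strand, so part of the Cebpb and Cebpd reads may belong to these neighbours or may have gone uncounted. Their levels per kb carry the same limit. Spidr read 170 ± 7.08 in VE-PTPiKO IR and 146 ± 13.7 in VE-PTPiKO sham, and 167 ± 20.3 in Control IR and 137 ± 5.61 in Control sham, in normalized reads of each genotype's table (SD, n = 3). Its log2 difference after IR was 0.21 in VE-PTPiKO and 0.28 in Control (limma adjusted p = 0.626 and 0.352). Tmem189 went the other way from Cebpb, with log2 −0.46 in VE-PTPiKO and −0.45 in Control (limma adjusted p = 0.128 and 0.022).

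The RefSeq promoter table (GRCm38.p6) matched 3 of the 4 genes, all but Cebpd. The 250 bases before the transcription start of these 3 are shown for the different core elements they carry. They run 5′ to 3′ on the gene's own strand and end at the base before the start. Capitals mark a TATA box (TATAAA) and the C/EBP core TTGCG in Cebpa, the core of the cAMP response element, or CRE (TGACG, read as CGTCA on the other strand) in Cebpb, and CCAAT boxes (read as ATTGG on the other strand) in Cebpg. The windows are chr7:35119043-35119292 (plus strand), chr2:167688665-167688914 (plus strand) and chr7:35056567-35056816 (minus strand).
Cebpa: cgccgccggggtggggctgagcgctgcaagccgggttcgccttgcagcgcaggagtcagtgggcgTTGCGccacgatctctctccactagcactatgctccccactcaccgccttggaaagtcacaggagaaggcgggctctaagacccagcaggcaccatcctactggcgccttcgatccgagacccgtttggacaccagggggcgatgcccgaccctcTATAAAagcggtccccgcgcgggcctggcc
Cebpb: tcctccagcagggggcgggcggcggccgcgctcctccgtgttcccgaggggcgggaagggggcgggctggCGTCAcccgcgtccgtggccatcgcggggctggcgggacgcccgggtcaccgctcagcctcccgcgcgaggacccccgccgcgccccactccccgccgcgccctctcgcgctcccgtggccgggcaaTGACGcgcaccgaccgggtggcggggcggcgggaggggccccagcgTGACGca
Cebpg: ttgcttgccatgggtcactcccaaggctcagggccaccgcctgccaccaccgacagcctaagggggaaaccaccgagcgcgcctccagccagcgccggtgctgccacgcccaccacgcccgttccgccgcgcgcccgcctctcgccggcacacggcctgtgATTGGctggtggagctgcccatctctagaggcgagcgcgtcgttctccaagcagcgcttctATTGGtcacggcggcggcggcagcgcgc

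Each motif was searched on both strands of these windows and of all 32851 RefSeq promoters of the same length. TATAAA begins at −30 in Cebpa, the usual distance of a TATA box, and 12.4% of all promoters hold it. TTGCG, a motif added after the sequences had been read, begins at −185 in Cebpa and is held by 14.5%. TGACG, which is also part of the full CRE, occurs at −180, −53 and −7 in Cebpb and is held by 17.8%. CCAAT occurs at −89 and −28 in Cebpg and is held by 33.8%. GGGCGG, a GC box that is not in capitals above, occurs at 5 places in Cebpb, the first 2 overlapping, and is held by 32.7%. GC content was 66.4% in Cebpa, 81.6% in Cebpb and 70.8% in Cebpg, against a median of 52.4% over all promoters. None of the 3 windows held the full C/EBP motif TTGCNNAA, the C/EBP-ATF element TGATGNAA, the full CRE TGACGTCA, the AP-1 motif TGANTCA, the STAT motif TTCNNNGAA, the NF-kB motif or the EGR motif GCGNGGGCG. These were held by 9.6%, 3.5%, 1.5%, 6.7%, 7.0%, 1.2% and 4.7% of all promoters. A match or its lack describes only these letters in these windows.

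Libraries held 15427887 to 21296392 reads on genes. Each of the 4 genes had between 209 and 1901 reads in every library, so counting error alone ran from 2.29% to 6.92% of a value, and the spread between libraries of a group ran from 8.17% to 34.5% (coefficient of variation). The values are bulk reads, in which fewer cells of a type and less RNA per cell cannot be told apart. All 9 defining kidney markers, among them Slc34a1 and Umod, were present in every group. Ptprb, the targeted gene, stood at 75.0 to 126 CPM (reads scaled to the library's total) in VE-PTPiKO IR and 117 to 162 CPM in VE-PTPiKO sham, against 112 to 159 CPM in Control IR and 168 to 246 CPM in Control sham. The log2 difference between genotypes was −0.45 after IR and −0.43 in sham (limma adjusted p = 1 in both), and reads over the whole gene cannot show a deleted part. Malat1, a nuclear RNA, took 1.96% of reads in VE-PTPiKO IR 3, 1.15% in VE-PTPiKO sham 2 and 1.02% in Control sham 2, against 0.327% to 0.564% in the other 9 libraries. For the 4 C/EBP genes, values without these 3 libraries stand beside the results they move. Nothing in the labels says that the libraries came from separate animals, so the p-values rest on a spread that may be technical.

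Cebpa and Cebpd were higher after IR than after sham in both genotypes. Cebpa, the differentiation factor, stood about 2-fold higher in each genotype, and Cebpd, the acute-phase factor, about 2.4-fold to 2.5-fold. Cebpb passed the test in Control kidneys, at 1.48-fold, and not in VE-PTPiKO kidneys. Cebpg did not pass in either. In VE-PTPiKO kidneys 2 of the 4 genes were thus called, both higher, where 2.71% of 16401 tested genes were called, 1.92% higher and 0.793% lower. In Control kidneys 3 of 4 were called, all higher, where 11.5% of 16257 tested genes were called, 7.48% higher and 4.02% lower. A call is a Benjamini-Hochberg adjusted p under 0.05 in limma on log2(value + 1), adjusted over all genes tested.

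**Figure D1:**
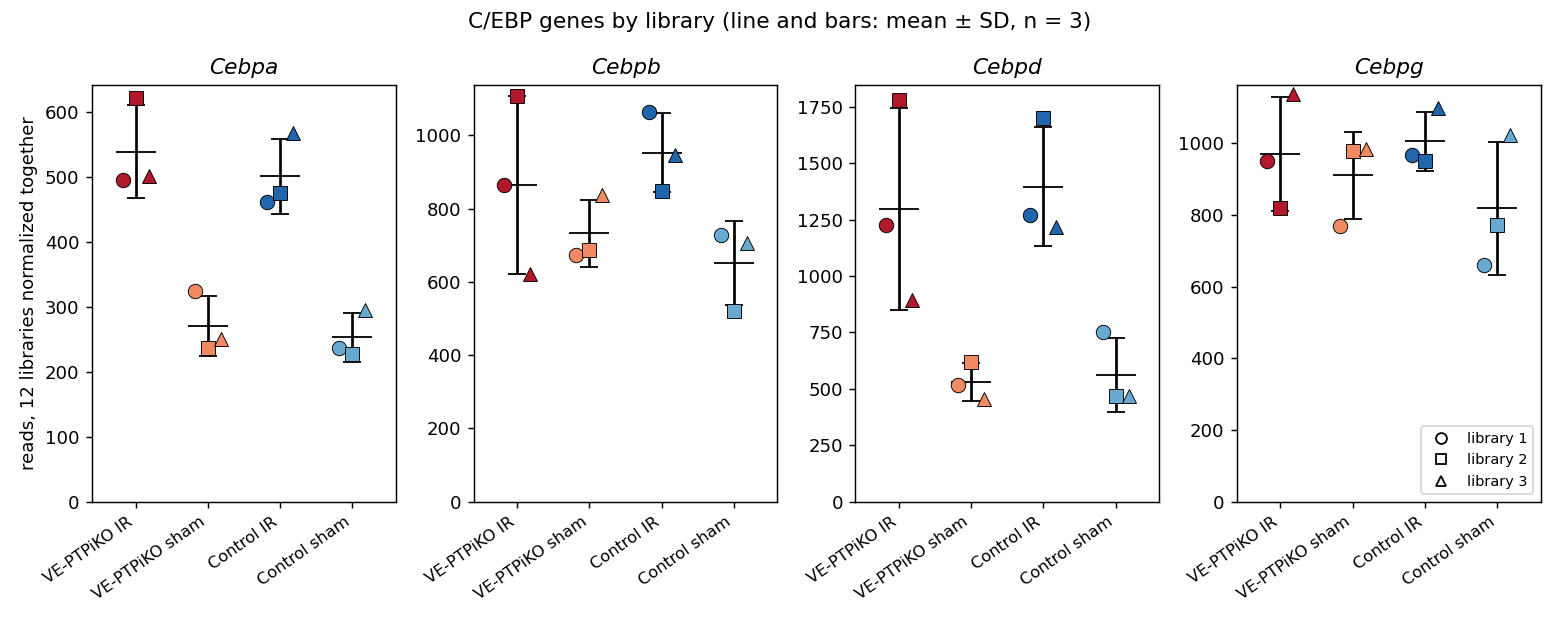
Normalized reads (y axis, 12 libraries normalized together) of Cebpa, Cebpb, Cebpd and Cebpg in VE-PTPiKO IR, VE-PTPiKO sham, Control IR and Control sham. Points are libraries, with the mark giving the library number, and lines with bars are mean ± SD (n = 3); every IR library lies above every sham library of its genotype for Cebpa and Cebpd, and the Cebpg groups overlap.

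Cebpa had 495, 622 and 501 normalized reads in VE-PTPiKO IR, against 324, 236 and 251 in VE-PTPiKO sham. It had 462, 475 and 568 in Control IR, against 236, 227 and 296 in Control sham. These per-library values come from all 12 libraries normalized together. All 6 IR libraries lay above all 6 sham libraries, and the genotypes interleaved within each surgery. Groups that did not overlap, with IR higher, were found for 10.6% of tested genes in VE-PTPiKO and 16% in Control. The log2 difference after IR was 1.00 ± 0.19 in VE-PTPiKO (SE, limma adjusted p = 0.0201) and 0.99 ± 0.15 in Control (adjusted p = 0.00161). In Control this call held without each library in turn, with adjusted p between 0.00248 and 0.0106. In VE-PTPiKO it ended without IR 1, IR 2, sham 2 or sham 3 (adjusted p = 0.0652, 0.105, 0.103 and 0.128), while the difference stayed between 0.89 and 1.14. The authors' deposited DESeq2 fit gave log2 0.92 for Cebpa in VE-PTPiKO and 0.95 in Control (deposited adjusted p = 1.53e-06 and 1.54e-09).

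Cebpd had 1225, 1777 and 891 normalized reads in VE-PTPiKO IR, against 515, 620.5 and 454 in VE-PTPiKO sham. It had 1269, 1700.1 and 1218 in Control IR, against 751, 466 and 469 in Control sham. Every IR library again lay above every sham library, and the lowest IR value was that of VE-PTPiKO IR 3, the library highest in Malat1. The log2 difference after IR was 1.25 ± 0.25 in VE-PTPiKO (limma adjusted p = 0.031) and 1.34 ± 0.19 in Control (adjusted p = 0.00123). Without the libraries highest in Malat1 it was 1.61 in VE-PTPiKO and 1.22 in Control, both called. The VE-PTPiKO call was kept without IR 3 and ended without any other single library, at adjusted p between 0.0722 and 0.17. For Cebpd the deposited DESeq2 fit gave log2 1.13 in VE-PTPiKO and 1.24 in Control (deposited adjusted p = 1.95e-06 and 1.99e-12). The Control call held without each library in turn.

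Cebpb, the other acute-phase factor, had 865, 1109 and 622 normalized reads in VE-PTPiKO IR, against 673, 688 and 838 in VE-PTPiKO sham. It had 1064, 849.6 and 946 in Control IR, against 727, 521 and 707 in Control sham. The Control groups did not overlap, with IR higher. The VE-PTPiKO groups did overlap, since IR 3 lay below all 3 sham libraries. The log2 difference after IR was 0.21 in VE-PTPiKO, with a 95% interval from −0.27 to 0.69 (limma adjusted p = 0.722). In Control it was 0.56 ± 0.15, with an interval from 0.23 to 0.89 (adjusted p = 0.0343). The VE-PTPiKO interval includes both 0 and the Control estimate.

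The Control call of Cebpb rested on every library but sham 1. It ended without IR 1, IR 2, IR 3, sham 2 or sham 3 (limma adjusted p = 0.126, 0.0687, 0.0915, 0.0525 and 0.0569), with a difference of 0.41 to 0.65. Control sham 2, high in Malat1, held the lowest Cebpb value of the group. In VE-PTPiKO the difference was 0.43 without IR 3 (adjusted p = 0.102) and 0.01 without IR 2 (adjusted p = 0.995). A model of all 12 libraries also ended the Control call (adjusted p = 0.102). In the authors' deposited table, fitted with DESeq2, Cebpb differed by log2 0.53 in Control (deposited adjusted p = 0.000956) and 0.22 in VE-PTPiKO (deposited adjusted p = 0.565).

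Cebpg, the partner of ATF4, had 951, 821 and 1138 normalized reads in VE-PTPiKO IR, against 770.0, 978 and 984 in VE-PTPiKO sham. It had 968, 949.8 and 1100.3 in Control IR, against 659, 773 and 1024 in Control sham. The ranges overlapped in both genotypes. The log2 difference was 0.09 in VE-PTPiKO, with a 95% interval from −0.29 to 0.47 (limma adjusted p = 0.864), and 0.32 in Control, with an interval from −0.02 to 0.67 (adjusted p = 0.243). The intervals leave out a 2-fold rise in both genotypes.

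As a fold of the fitted values, the IR responses averaged over both genotypes were 1.99 for Cebpa, 1.30 for Cebpb, 2.44 for Cebpd and 1.15 for Cebpg. This average, from all 12 libraries in 1 model, was added after the separate results had been seen and uses the same libraries. Cebpa and Cebpd passed (log2 0.99 and 1.29, limma adjusted p = 5.41e-05 and 0.000191), where 18.2% of 16346 genes were called, 10.2% higher and 8.05% lower. Cebpb did not (0.38, 95% interval 0.08 to 0.68, adjusted p = 0.0769), nor did Cebpg (0.20, interval −0.06 to 0.46, adjusted p = 0.293). Without the libraries highest in Malat1 Cebpb passed at nearly the same size (0.39, adjusted p = 0.0222). It also passed without VE-PTPiKO IR 3 alone (0.49, adjusted p = 0.00697) and failed without any other single library (adjusted p = 0.076 to 0.179).

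**Figure D2:**
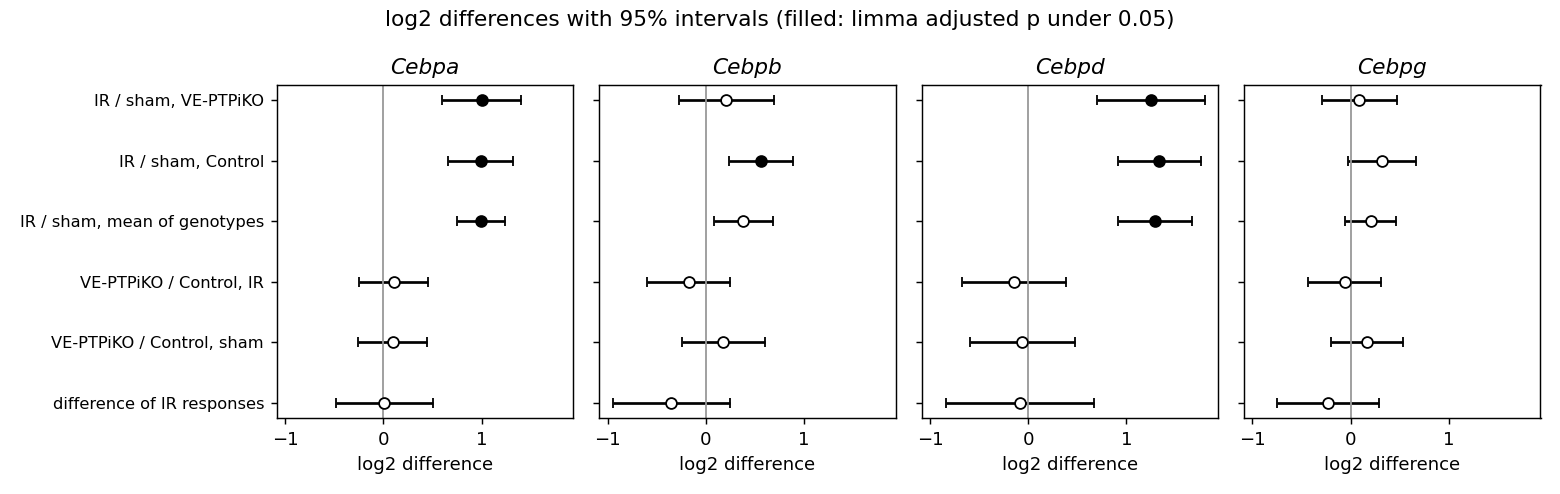
Log2 differences (x axis) of the 4 genes in 6 comparisons (rows), with 95% intervals and filled points where the limma adjusted p is under 0.05. Cebpa and Cebpd are filled in all 3 rows of IR over sham, Cebpb only for Control, and every interval of the interaction and of VE-PTPiKO against Control includes 0.

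Whether targeting VE-PTP changed these levels was asked directly. After IR, VE-PTPiKO and Control means were 539 ± 71.3 and 502 ± 57.7 normalized reads for Cebpa, 865 ± 244 and 953 ± 107 for Cebpb, 1298 ± 448 and 1396 ± 265 for Cebpd, and 969.9 ± 159 and 1006 ± 82.1 for Cebpg (SD, n = 3). In sham kidneys they were 270.4 ± 46.8 and 253 ± 37.3 for Cebpa, 733 ± 91.3 and 652 ± 114 for Cebpb, 529.9 ± 84.2 and 562 ± 164 for Cebpd, and 911 ± 122 and 819 ± 187 for Cebpg. The genotype groups overlapped for all 4 genes in both surgeries. Over all tested genes, VE-PTPiKO lay wholly above Control in 3.98% and below it in 5.19% after IR, and in 2.51% and 2.37% in sham.

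The log2 difference of VE-PTPiKO from Control after IR was 0.10 for Cebpa, −0.17 for Cebpb, −0.15 for Cebpd and −0.06 for Cebpg, and in sham 0.09, 0.18, −0.06 and 0.17 for the same genes (limma adjusted p = 1 for each). The difference between the IR responses, VE-PTPiKO minus Control, was 0.01 for Cebpa (95% interval −0.49 to 0.51) and −0.35 for Cebpb (−0.95 to 0.25). It was −0.09 for Cebpd (−0.84 to 0.67) and −0.23 for Cebpg (−0.75 to 0.29), with adjusted p = 0.999 for each. The test of the difference therefore did not separate the genotypes for Cebpb, although only Control passed. Without the libraries highest in Malat1 the Cebpb difference was −0.02 and that of Cebpd 0.39.

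In these 3 comparisons 0 of 16346 genes, or 0%, were called by limma. At an unadjusted p under 0.05 there were 433 genes for the interaction, 709 after IR and 267 in sham. Each count is below the share of 0.05 of tested genes that is expected with no difference between genotypes. These counts depended on few libraries. They were 1452, 1466 and 360 without VE-PTPiKO IR 3 alone, and 2407, 2008 and 956 without the libraries highest in Malat1, where limma called 0, 0 and 1 genes. Without Control sham 2 alone the sham count was 607. DESeq2 on the recovered reads called 0, 1 and 1 genes, and edgeR 0 in each. Leaving out single libraries or those highest in Malat1 turned the sign of several of these small differences.

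**Figure D3:**
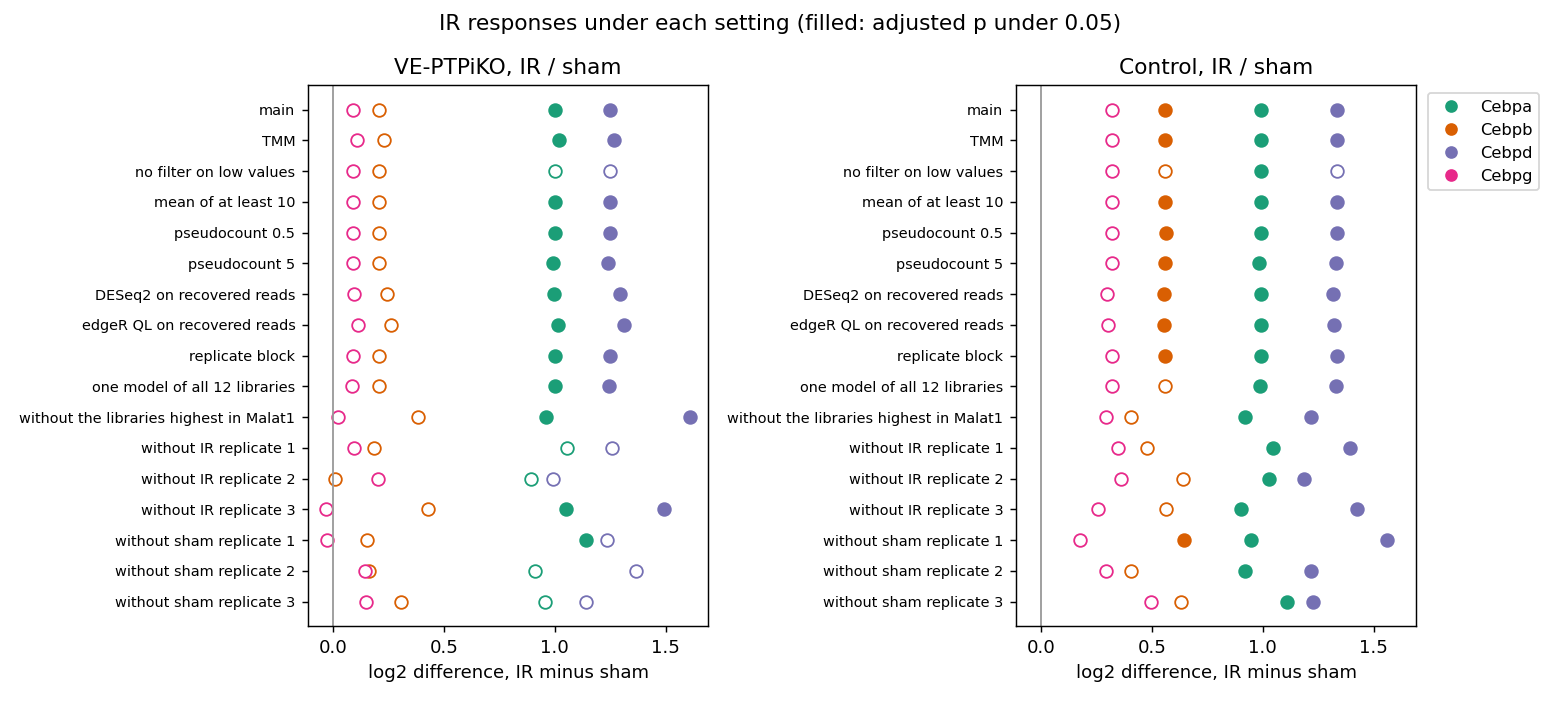
Log2 difference of IR from sham (x axis) for the 4 genes under each processing setting (rows), VE-PTPiKO on the left and Control on the right; filled points have an adjusted p under 0.05. Cebpa and Cebpd stay near 1 or above in nearly every row, while Cebpb moves between 0.01 and 0.43 in VE-PTPiKO and between 0.41 and 0.65 in Control.

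The 4 genes also differ in level, which can be compared only per length. With the gene span of the tables (for Cebpg, its longest coding transcript of 4709 bases), Cebpb led in sham kidneys with 483 ± 60.2 normalized reads per kb in VE-PTPiKO and 429 ± 74.8 in Control. Cebpd followed with 234 ± 37.3 in VE-PTPiKO sham and 249 ± 72.4 in Control sham, Cebpg with 193 ± 25.9 and 174 ± 39.6, and Cebpa with 103 ± 17.8 and 95.9 ± 14.2. The ranges of Cebpb lay above those of the other genes, and those of Cebpd and Cebpg overlapped in both genotypes. After IR, Cebpd and Cebpb stood level, at 574 ± 198 and 570.0 ± 160 per kb in VE-PTPiKO IR and 618 ± 117 and 628 ± 70.6 in Control IR. Cebpa and Cebpg had nearly equal means in VE-PTPiKO IR, at 205 ± 27.1 and 206 ± 33.9, but in opposite orders in IR 2 (236 and 174) and IR 3 (190 and 242). In Control IR they stood at 190.3 ± 21.9 and 214 ± 17.4, with Cebpg above Cebpa in each library.

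The place of Cebpd in this order depends on its length, which is 2260 bases in the tables and 3746 in GENCODE. With GENCODE lengths, a choice made after the annotation was seen, Cebpd stood at 346 ± 119 per kb in VE-PTPiKO IR and 373 ± 70.7 in Control IR, below Cebpb. In sham it then stood at 141 ± 22.5 in VE-PTPiKO and 150.0 ± 43.7 in Control, with means below those of Cebpg.

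Summed per kb, the C/EBP transcript pool was 1555 ± 349 in VE-PTPiKO IR and 1013 ± 50.6 in VE-PTPiKO sham, and 1649 ± 41.6 in Control IR and 948 ± 130 in Control sham. Cebpd made up 36.3% ± 4.45 of this sum in VE-PTPiKO IR and 23.2% ± 3.93 in VE-PTPiKO sham, and 37.3% ± 6.13 in Control IR and 26.1% ± 5.62 in Control sham. The share of Cebpb was 36.3% ± 2.76 in VE-PTPiKO IR and 47.6% ± 4.16 in VE-PTPiKO sham, and 38.1% ± 4.83 in Control IR and 45.1% ± 1.91 in Control sham. In both genotypes the IR and sham ranges of these 2 shares and of the sum did not overlap, and the exact two-sided permutation p was 0.1, the smallest that 3 against 3 libraries allow. The shares of Cebpa and Cebpg overlapped (exact permutation p = 0.2 to 0.6). With GENCODE lengths the share of Cebpa did not overlap, with IR higher, in either genotype (15.6% ± 1.74 in VE-PTPiKO IR and 11.2% ± 2.53 in VE-PTPiKO sham, and 13.5% ± 1.63 in Control IR and 11.3% ± 1.29 in Control sham, exact permutation p = 0.1), and the Control shares of Cebpb overlapped too (44.9% ± 4.62 in IR and 50.6% ± 2.44 in sham, exact permutation p = 0.2). Without the libraries highest in Malat1, which leaves too few for a test, the sum was 1501.8 to 1927 in VE-PTPiKO IR and 958 to 1057 in VE-PTPiKO sham, and 1611 to 1694 in Control IR and 1003 to 1041 in Control sham. The Cebpd and Cebpb shares then still did not overlap in either genotype, and the Cebpg share no longer overlapped in VE-PTPiKO (9.05% to 13.4% in IR and 17.1% to 19.8% in sham). A share falls when others rise, so a lower share of Cebpb is no fall in its reads.

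**Figure D4:**
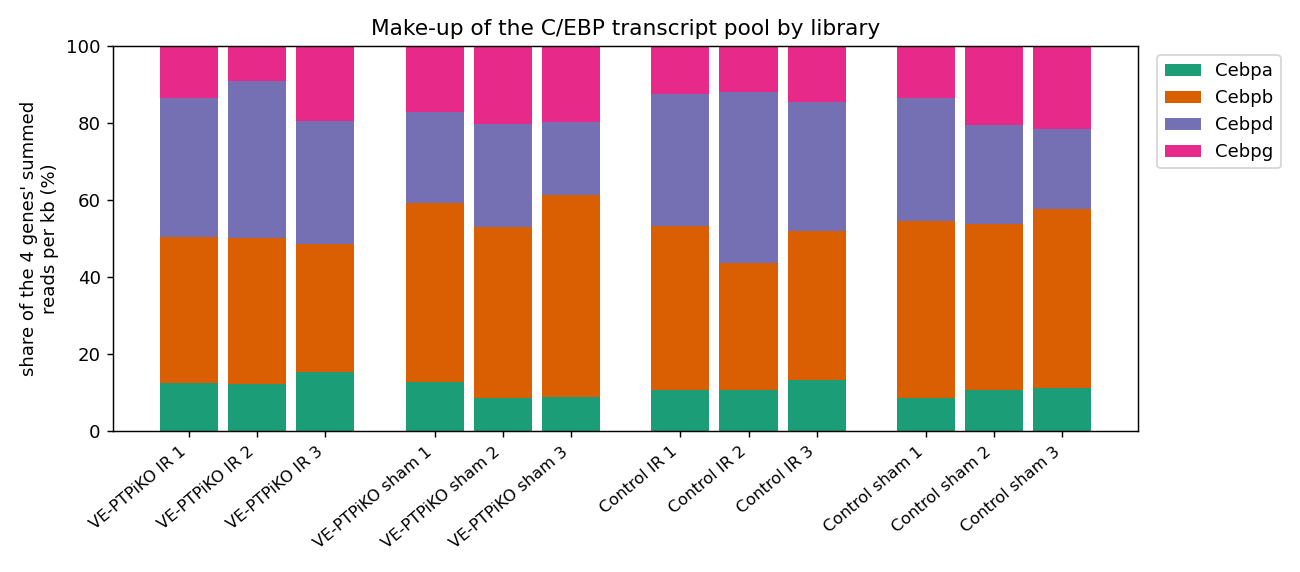
Share of each gene in the summed reads per kb of the 4 C/EBP genes (y axis, %) in each of the 12 libraries, with lengths as in the tables. The band of Cebpd is wider and that of Cebpb narrower in IR than in sham libraries of both genotypes.

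Within groups the pairs of the 4 genes differed in sign, and 12 libraries are too few to show whether the genes deviate together. Across the 12 libraries, deviations from the group mean on the log2 scale had Pearson r = −0.69 and Spearman rho = −0.69 between Cebpd and Cebpg, and r = −0.46 over the 10 libraries left without the 2 farthest in Cebpd. Cebpb and Cebpd had r = 0.51, which was −0.02 without the 2 libraries farthest in Cebpb. The other 4 pairs lay between −0.27 and 0.32. With 2 libraries left out in the same way they lay between −0.19 and 0.46, the highest being Cebpa with Cebpb. These 6 values share the same libraries and their depth, and VE-PTPiKO IR 3 combined the lowest Cebpd with the highest Cebpg of its group.

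By Pearson r of log2 values over the 12 libraries among the 10406 genes that averaged 5 CPM or more, those most like Cebpa were Vim, which encodes the filament protein vimentin (r = 0.982), Prr15 (0.975) and the monocarboxylate transporter family gene Slc16a6 (0.966). Most like Cebpd were Osr2, a zinc-finger factor (0.968), Sh3gl1, an endophilin of endocytosis (0.964), and Zkscan6 (0.960). Most like Cebpb were the ephrin ligand Efna1 (0.923), the ubiquitin ligase Rnf149 (0.916) and Bloc1s4 (0.895), and most like Cebpg were Vwa5a (0.937), Ccdc186 (0.888) and N4bp1 (0.875). These points share the split of IR from sham as well as library composition. Vim had 1518, 1562 and 1353 normalized reads in VE-PTPiKO IR, against 798, 571 and 684 in VE-PTPiKO sham. It had 1291, 1491 and 1505 in Control IR, against 582, 624 and 713 in Control sham. Efna1 had its lowest VE-PTPiKO IR value, 463, in IR 3, where Cebpb was lowest too. It was picked for its likeness to Cebpb over these same libraries, so this is no separate result.

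Cebpe, a factor of granulocyte maturation, had at most 1 read in any library, within the floor of 3 reads (0.141 to 0.195 CPM), and was not tested. Cebpz, which shares the name but is no bZIP protein, had log2 differences of 0.08 in VE-PTPiKO and 0.18 in Control (limma adjusted p = 0.853 and 0.389). Of 7 tested genes in a list of these and of bZIP partners, 3 were higher and 0 lower after IR in each genotype. The list's median log2 difference was 0.95 in VE-PTPiKO and 0.99 in Control, beside −0.01 over all tested genes in each genotype. Among all tested genes 1.92% were higher and 0.793% lower in VE-PTPiKO, and 7.48% and 4.02% in Control. Most genes named from this list and the lists below were picked among those called in Control, which favours larger values there. Atf3, a stress-induced bZIP repressor, had 2375, 2655 and 756 normalized reads in VE-PTPiKO IR, against 230, 149 and 243 in VE-PTPiKO sham. It had 2847, 4981 and 3056 in Control IR, against 282, 228 and 223 in Control sham. Its log2 difference was 3.05 in VE-PTPiKO and 3.85 in Control (limma adjusted p = 0.00781 and 3.18e-06). Ddit3, which encodes the C/EBP homolog CHOP, rose by 1.51 and 1.35 (adjusted p = 0.00568 and 0.000188), and Atf4 by 0.95 and 0.99 (adjusted p = 0.0159 and 0.00123). All 3 calls held in Control without each library in turn. In VE-PTPiKO those of Atf3 and Ddit3 held likewise, and that of Atf4 ended without IR 1, IR 2, sham 2 or sham 3 (highest adjusted p = 0.101). VE-PTPiKO IR 3 held the lowest Atf3 value of its group, and without it the VE-PTPiKO difference of Atf3 was 3.63 (adjusted p = 4.75e-05).

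Cytokines that act upstream of C/EBPβ and C/EBPδ were low in reads. Of 7 tested in VE-PTPiKO 3 were higher and of 8 tested in Control 4, with 0 lower in either. Medians were 1.89 and 1.60. Among all tested genes 1.92% were higher in VE-PTPiKO and 7.48% in Control, with a median of −0.01 in each. Il6 had 19.9, 9.85 and 14.3 normalized reads in VE-PTPiKO IR, against 0, 0.946 and 0 in VE-PTPiKO sham. It had 12.9, 51.0 and 22.8 in Control IR, against 0 in each of the 3 Control sham libraries. Its limma adjusted p was 0.00983 in VE-PTPiKO and 0.000345 in Control. Lif, an IL-6 family cytokine, rose by log2 2.96 in VE-PTPiKO and 4.07 in Control (adjusted p = 0.00442 and 0.00159), and Il11 by 2.34 and 2.28 (adjusted p = 0.0241 and 0.0134). Il1b rose in Control by 1.41 (adjusted p = 0.0136) and stood at 1.43 in VE-PTPiKO (adjusted p = 0.112). At such counts the size depends on the pseudocount: over the settings other than leaving out 1 library, Il6 ran from 1.85 to 5.45 in VE-PTPiKO and from 2.60 to 7.89 in Control. Control IR 2 held the highest value of its group for Il6, Lif, Il11 and Il1b, as it did for Cebpd. For Cebpb it held the lowest value of the group, 849.6. In Control, Il11 lost its call without IR 2 (adjusted p = 0.0825) and Il1b without IR 2 or sham 3 (highest adjusted p = 0.0891). In VE-PTPiKO, Il6 lost it without IR 1 or sham 3 (highest 0.0616), and Il11 without IR 1, IR 2, sham 2 or sham 3 (highest 0.124).

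Of 11 receptors and signal transducers, 1 was higher in VE-PTPiKO and 5 in Control, with 0 lower. Their medians were 0.23 and 0.32, beside −0.01 over all tested genes in each genotype. The share called higher over all tested genes was 1.92% in VE-PTPiKO and 7.48% in Control. Socs3, the feedback inhibitor of JAK-STAT signalling, had 715, 935 and 781 normalized reads in VE-PTPiKO IR, against 216, 229 and 142 in VE-PTPiKO sham. It had 800.4, 1815 and 724 in Control IR, against 296, 278 and 197 in Control sham. Its log2 differences were 2.07 and 2.01 (limma adjusted p = 0.0016 and 0.00147), and both calls held without each library in turn. Il1r1, the IL-1 receptor, was at 0.48 in VE-PTPiKO (adjusted p = 0.212) and rose by 0.93 in Control (adjusted p = 0.0036). Tnfrsf1a, a TNF receptor, was at 0.59 in VE-PTPiKO (adjusted p = 0.0578) and rose by 0.72 in Control (adjusted p = 0.00163). In VE-PTPiKO it passed without IR 3 (0.55, adjusted p = 0.0271) and by DESeq2 (0.59, adjusted p = 0.00394). Osmr, the oncostatin M receptor, was at 0.61 in VE-PTPiKO (adjusted p = 0.263) and rose by 0.71 in Control (adjusted p = 0.0465), a call lost without any library but sham 2 (highest adjusted p = 0.203). Jak1 (0.61 in Control) was the fifth gene called there and is named after its value was seen. The receptor subunits Il6ra and Il6st, Stat3 and the glucocorticoid receptor gene Nr3c1 did not pass in either genotype, with log2 differences from −0.09 to 0.09 in VE-PTPiKO and from 0.04 to 0.32 in Control.

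Among 10 regulators of C/EBP protein, 1 was higher in VE-PTPiKO and 3 in Control, with 0 lower. Their medians were 0.11 and 0.20, beside −0.01 over all tested genes in each genotype. Called higher over all tested genes were 1.92% in VE-PTPiKO and 7.48% in Control. The Tribbles pseudokinase TRIB1 brings C/EBPα to the ubiquitin ligase COP1. Trib1 had 1310.5, 1441 and 1829 normalized reads in VE-PTPiKO IR, against 547, 751 and 735 in VE-PTPiKO sham. It had 2157, 2458 and 1585 in Control IR, against 597, 769 and 586 in Control sham. It rose by log2 1.17 and 1.66 (limma adjusted p = 0.0109 and 0.000127), and the VE-PTPiKO call ended without sham 3 (adjusted p = 0.056). Trib3 was at 0.47 in VE-PTPiKO (adjusted p = 0.674) and rose by 1.71 in Control (adjusted p = 0.00241), with 1 VE-PTPiKO sham library, at 107, above all 3 VE-PTPiKO IR libraries. Rps6ka1, which encodes the kinase RSK1, was at 0.64 in VE-PTPiKO (adjusted p = 0.527) and rose by 0.72 in Control (adjusted p = 0.038), a call lost without any library but sham 2 (highest adjusted p = 0.14). The COP1 gene, listed as Rfwd2, and the ligase gene Fbxw7 had log2 differences of −0.01 and 0.02 in VE-PTPiKO (adjusted p = 0.948 and 0.897), and in Control their adjusted p was 0.992 and 0.988.

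Acute-phase and inflammatory targets were split. Of 13 tested genes among 17, 6 were higher in VE-PTPiKO and 5 in Control, with 0 lower, and the medians were 1.46 and 0.90. All tested genes had a median of −0.01 in each genotype, with 1.92% higher in VE-PTPiKO and 7.48% in Control. The chemokine genes led: Cxcl2 rose by log2 3.60 in VE-PTPiKO and 4.55 in Control (limma adjusted p = 0.00798 and 0.000908), Ccl2 by 3.82 and 4.08 (0.00599 and 0.000543) and Cxcl1 by 3.72 and 3.59 (0.000434 and 3.18e-06). Cxcl1 had 1375, 1453 and 1105 normalized reads in VE-PTPiKO IR, against 151, 99.3 and 62.5 in VE-PTPiKO sham. It had 1349, 1004 and 1133 in Control IR, against 78.0, 119.5 and 92.1 in Control sham. Lcn2, an iron-siderophore binding protein and kidney injury marker, rose by 1.63 and 2.93 (adjusted p = 0.0167 and 0.000459), and its VE-PTPiKO call ended without sham 2 or sham 3 (highest 0.0771). It had 687, 362 and 398 normalized reads in VE-PTPiKO IR, and 510, 1525 and 541 in Control IR. The Control call held without each library in turn, with a difference of 2.42 to 3.20. In the test of the difference between IR responses 0 genes of this list were called. Cd14 was called in both genotypes. Ptgs2, which encodes cyclooxygenase 2, was called in VE-PTPiKO (1.64, adjusted p = 0.00687) and just missed the threshold in Control (0.90, adjusted p = 0.0511), where its groups did not overlap either. The difference between these responses did not pass (0.74, adjusted p = 0.999), and both genes are named after their values were seen. The liver acute-phase genes Saa1, Saa2 and Hamp had too few reads to be tested. Hp, C3 and Saa3 did not pass (log2 0.46, −0.02 and 1.60 in VE-PTPiKO, and 0.20, −0.18 and 2.01 in Control).

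Metabolic targets of C/EBPα, best known in liver and fat, included genes that fell in both genotypes. Of 8 tested genes among 10, 2 were lower in each genotype, 0 were higher in VE-PTPiKO and 1 in Control, and the medians were −0.25 and −0.10. All tested genes had a median of −0.01 in each genotype. Of them 0.793% were lower and 1.92% higher in VE-PTPiKO, and 4.02% and 7.48% in Control. G6pc, glucose-6-phosphatase, fell by 2.45 in VE-PTPiKO and 2.80 in Control on the log2 scale (limma adjusted p = 0.00162 and 3.44e-05). It had 8619, 7747 and 7372 normalized reads in VE-PTPiKO IR, against 28068, 50567 and 56560.3 in VE-PTPiKO sham. It had 7664, 4650.5 and 4413 in Control IR, against 48878, 36118 and 30508 in Control sham. Pck1, which encodes the gluconeogenic enzyme PEPCK, fell by 1.37 and 1.43 (adjusted p = 0.0102 and 0.000336), and its VE-PTPiKO call ended without IR 1 or sham 3 (highest 0.0698). Fabp4, a fatty acid binding protein, was at 0.27 in VE-PTPiKO (adjusted p = 0.331) and rose by 0.50 in Control (adjusted p = 0.0285), a call lost without IR 2, IR 3 or sham 1 (highest adjusted p = 0.131).

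A list of 12 genes was read for C/EBPγ with ATF4, mostly amino acid and glutathione genes but also Nqo1 and Vldlr. Whether each is a target of C/EBPγ was not tested. Of these 0 were higher and 1 lower in VE-PTPiKO, and 4 higher and 0 lower in Control. The medians were 0.05 and 0.14, beside −0.01 over all tested genes in each genotype. Among all tested genes 1.92% were higher and 0.793% lower in VE-PTPiKO, and 7.48% and 4.02% in Control. Chac1, a glutathione-degrading enzyme, had 165, 258 and 111 normalized reads in VE-PTPiKO IR, against 83.2, 34.1 and 18.7 in VE-PTPiKO sham. It had 346, 569 and 373 in Control IR, against 31.7, 42.2 and 31.1 in Control sham. Its log2 difference was 2.12 in VE-PTPiKO (limma adjusted p = 0.0692) and 3.56 in Control (adjusted p = 7.8e-06). Slc7a11, the cystine transporter, was at 1.11 in VE-PTPiKO (adjusted p = 0.144) and rose by 2.06 in Control (adjusted p = 0.0263). Asns, asparagine synthetase, was at 0.89 (adjusted p = 0.137) and rose by 0.98 in Control (adjusted p = 0.00145). Gclc, the catalytic subunit of glutathione synthesis, was at 0.44 (adjusted p = 0.332) and rose by 0.60 in Control (adjusted p = 0.0161). The Control call of Slc7a11 ended without IR 2, IR 3 or sham 3 (highest adjusted p = 0.117), and that of Gclc without IR 1 or IR 2 (highest adjusted p = 0.0747). In VE-PTPiKO 3 of these genes passed without IR 3: Chac1 at 2.42, Asns at 1.13 and Gclc at 0.61 (adjusted p = 0.0201, 0.0136 and 0.0387). Chac1 also passed without sham 1 (2.69, adjusted p = 0.0145). Chac1 and Asns passed there by DESeq2 (adjusted p = 0.00183 and 0.0293) and in 1 model of all 12 libraries (limma adjusted p = 0.011 and 0.0339). Averaged over both genotypes, 4 of the 12 were higher and 3 lower, where 10.2% of all tested genes were higher and 8.05% lower. The lower ones, named after their values were seen, were Psat1 (−0.72), Nqo1 (−0.45) and Shmt2 (−0.23). Psat1, a serine synthesis enzyme, was the gene lower in VE-PTPiKO, where it fell by 0.84 (adjusted p = 0.0378); in Control it was at −0.59 (adjusted p = 0.144). None of these genes was called in a test of the difference between genotypes.

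**Figure D5:**
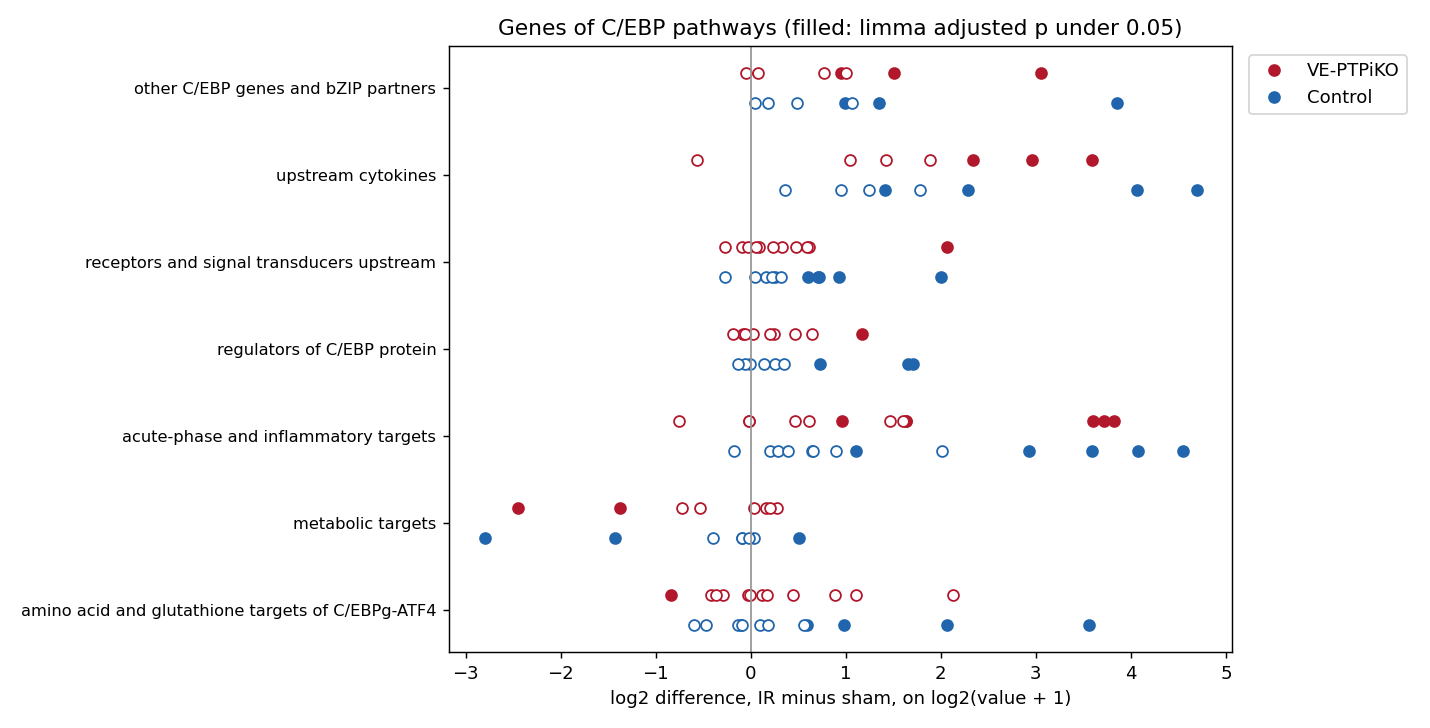
Log2 difference of IR from sham on log2(value + 1) (x axis) for each tested gene of 7 lists of C/EBP partners, upstream genes, regulators and targets (rows), VE-PTPiKO in the upper line of each row and Control in the lower; filled points have a limma adjusted p under 0.05. Cytokine and inflammatory genes reach above 3, while the metabolic list holds the 2 strongest falls, G6pc and Pck1.

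Markers of other cells that express C/EBP genes were read beside these results, as summed normalized reads. The 7 adipocyte markers summed to 738 to 1187 in VE-PTPiKO IR and 484 to 785 in VE-PTPiKO sham, and to 786 to 901 in Control IR and 463 to 1323 in Control sham. These sums overlapped between surgeries and 0 of the 7 markers were called in either genotype. Car3 made up most of each sum. Its medians were higher after IR, at 680 against 450 in VE-PTPiKO sham, and 628 against 471 in Control sham. In VE-PTPiKO the medians of the other adipocyte markers were all lower after IR, such as Adipoq (7.67 in IR and 14.2 in sham). In Control those of Adipoq, Cfd, Retn and Cidec were lower and those of Plin1 and Lep higher. The 7 neutrophil markers summed to 186 to 378 in VE-PTPiKO IR and 159 to 202 in VE-PTPiKO sham, and to 193 to 629.6 in Control IR and 114 to 251 in Control sham. Of these 0 were called in either genotype, but their median log2 differences were 0.59 in VE-PTPiKO and 0.78 in Control, beside −0.01 over all tested genes. Averaged over both genotypes 1 of the 7 was called higher, where 10.2% of all tested genes were. The 7 monocyte and macrophage markers summed to 1940.5 to 2225 in VE-PTPiKO IR and 1754 to 1873 in VE-PTPiKO sham, and to 2196 to 2308 in Control IR and 1715 to 1878 in Control sham. The sum in IR was thus above sham in both genotypes, but the markers did not all rise in VE-PTPiKO. There the medians of Csf1r (1077 in IR and 1212 in sham) and Itgam (95.1 and 99.3) were lower after IR, and those of the other markers higher. In Control the medians of all 7 were higher after IR. Among single tested genes, IR lay wholly above sham in 10.6% in VE-PTPiKO and 16% in Control. Of these 7, Cd68 was called higher in VE-PTPiKO (log2 2.38), and Cd68 and Lyz2 in Control (2.49 and 1.13). The red cell markers Hba-a1 and Alas2 stood at 1.61 and 1.38 in VE-PTPiKO, not called, and rose by 1.98 and 1.83 in Control. No list had a marker at 0 in all libraries. The part of neutrophil, macrophage and blood content in the rise of Cebpa, Cebpb and Cebpd was not tested.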

How the data were processed

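Bulk RNA-seq of 12 whole-kidney libraries was used; 2 single-cell samples of the series were not analysed here. RNA was extracted with Trizol and made into TruSeq RNA libraries, per the labels' protocols. Per the submitters' processing notes, the authors used FastQC, STAR, HTSeq and DESeq2 on mm10, with no versions stated. Per the file headers, 1 table per genotype compares IR with sham. The deposited library columns hold normalized signal, which the values show to be counts per gene scaled by 1 factor for each library. The deposited log2 fold changes, p-values and test score (Wald statistic) are the authors' own, and the score was not used. Each table had 23493 lines, of which 182 gene identifiers were repeated with identical values.

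Whole reads were recovered for 100.0% of values within a tolerance of 0.02. IR versus sham was tested within each genotype's own table by limma-trend (limma 3.58.1, R 4.3.3) on log2(value + 1) over genes whose mean reached 1, with Benjamini-Hochberg adjustment over all genes tested. The interaction, both genotype contrasts and the mean IR response used the recovered reads of the 12 libraries with common median-of-ratios factors from 14828 genes, which also gave the per-library values printed. Fold changes of low genes are understated by the pseudocount. The fits were tested on simulated counts. Alternatives were TMM, other filters and pseudocounts, DESeq2 1.42.0, edgeR 4.0.16 quasi-likelihood, a replicate block, 1 model of all libraries and leaving libraries out.

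The members, gene lists and tests were chosen with earlier results of these data known. Named pathway genes are up to 4 per list with the largest difference among those called in Control. That choice favours larger and called values in Control, so a named gene called only there shows no difference between genotypes. Of the listed genes, Cop1 was matched as Rfwd2 through RefSeq and Hbb-bs was not matched. Same-numbered libraries deviated together between VE-PTPiKO sham and Control sham (r = 0.488, 0.445 and 0.137 over 10613 genes). Sham 2 of both genotypes was high in Malat1. Between VE-PTPiKO IR and VE-PTPiKO sham r was 0.600, −0.407 and 0.234. In each comparison other than that of the sham groups at least 1 pair was below 0.1. Libraries of different numbers were not compared, so these values cannot show a pairing, and the labels state none.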

Additional observations from a re-analysis of the deposited data

How the results depend on the processing

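Directions after IR held for Cebpa, Cebpb and Cebpd in both genotypes under every alternative run. Calls did not. With no filter on low values the counts of called genes were 719 (Control), 75 (VE-PTPiKO), 6 (interaction), 4 (sham) and 4 (after IR), and Cebpb (0.56) and Cebpd (1.34) in Control and Cebpa (1.00) and Cebpd (1.25) in VE-PTPiKO lost their calls. That setting adds genes of almost no reads to the trend and the adjustment. DESeq2 called 1013 genes in VE-PTPiKO, 1 in sham and 1 after IR, and passed Cebpb averaged over genotypes (0.39, adjusted p = 0.0411). One model of all 12 libraries called 1019 in VE-PTPiKO and left Cebpb uncalled in Control (0.56). Without the libraries highest in Malat1, 853 genes were called in VE-PTPiKO and 1 in sham, Cebpb was uncalled in Control (0.41) and called on average (0.39), and signs turned for the Cebpd interaction (0.39) and for Cebpb (0.046) and Cebpd (0.097) after IR; the cause was not tested. Of the pathway genes named, those called in Control kept their calls in that setting, and in VE-PTPiKO Il11 lost it (2.02, adjusted p = 0.0593) and Asns gained it (1.08, adjusted p = 0.0469).

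Leaving out each library in turn gave 862 to 2010 calls in Control, 126 to 1925 in VE-PTPiKO (1925 without IR 3) and 0 to 1 for the interaction, sham and after IR. Log2 differences ran from 0.41 to 0.65 for Cebpb and 0.18 to 0.50 for Cebpg in Control (Cebpg never called, lowest adjusted p = 0.0539), and in VE-PTPiKO from 0.89 to 1.14 for Cebpa, 0.99 to 1.49 for Cebpd and −0.031 to 0.20 for Cebpg. The average over genotypes ran from 0.28 to 0.49 for Cebpb. The interaction ran from −0.11 to 0.15 for Cebpa and −0.34 to 0.15 for Cebpd, and from −0.55 to −0.14 for Cebpb and −0.40 to −0.083 for Cebpg. The sham contrast ran from −0.044 to 0.21 for Cebpa and −0.18 to 0.17 for Cebpd. The contrast after IR ran from −0.0052 to 0.19 for Cebpa, −0.37 to 0.042 for Cebpb, −0.40 to 0.094 for Cebpd and −0.19 to 0.050 for Cebpg. Where this leaves 1 group with 2 libraries, the spread is pooled.

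A replicate block by library number called 1805 genes in Control and 604 in VE-PTPiKO, 0 in the interaction and both genotype contrasts and 3056 for the average, and changed no call of the 4 genes. For the 4 genes counting error (at most 6.92%) was below the spread between libraries (at least 8.17%), so the 3 libraries a group limit the precision more than depth does.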
